A study of Mus musculus with 16 samples.

Results

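The chitinase and chitinase-like genes Chil3, Chil4, Chia1, Chil1 and Chit1 were followed across the airway epithelium of mice that carried or lacked the integrin subunit beta6 and received ovalbumin or saline. They were chosen by name, with earlier results of these data known, so their calls are not an independent test of the family. Their probes were found through the RefSeq accession printed for each probe. The 5 genes had 6 of the 41174 probes on the array, and 4 of the 5 passed the filter on dim probes and stood among the 18566 genes and unnamed transcripts that were tested. Chit1 did not pass.

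The study hybridized total RNA of airway epithelium, harvested by brushing, to 16 one-colour arrays in 4 groups of 4. In ko_OVA and ko_saline the mice were beta6 knockouts, and in wt_OVA and wt_saline they were wildtype, all of the strain FvB and 6 to 8 weeks old at sensitization. OVA mice were sensitized through the peritoneum with 20 ug of ovalbumin, an egg-white protein that serves as the allergen, on days 1, 4 and 7. They were then given 10 ug through the nose once a week for 9 weeks. Saline mice received saline at both steps, and tissue was taken 24 h after the last challenge. Itgb6 encodes beta6, an epithelial integrin subunit whose dimer releases active TGF-beta from its latent form. The labels do not say which part of the gene was removed or whether each array is a separate mouse.

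Chitinases cut chitin, the polymer of fungal walls, insect cuticle and mite bodies. Chia1 encodes acidic mammalian chitinase, an active enzyme of lung and stomach, and Chit1 encodes chitotriosidase, an active enzyme of macrophages. Chil3, Chil4 and Chil1 encode chitinase-like proteins that keep the fold of the family but have lost the catalytic residue. In mouse airways, Chil3 (also Ym1) is known from alternatively activated and alveolar macrophages, Chil4 (Ym2) and Chia1 from the epithelium of allergic lungs, and Chil1 from macrophages and epithelium, where it binds the interleukin 13 receptor subunit Il13ra2. Interleukin 4 and interleukin 13 act through the factor Stat6 and are known inducers of Chil3, Chil4 and Chia1.

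Chil3, Chil4 and Chia1 lie on chromosome 3, and the stretches around their start sites are shown because Chil3 and Chil4 moved together while Chia1 did not follow them across genotypes. Each line runs from 250 bases before to 50 bases after the annotated start, 5′ to 3′ on the strand of the gene, from RefSeq on GRCm38.p6. The windows are chr3:106167515-106167814 on the minus strand for Chil3, chr3:106219430-106219729 on the minus strand for Chil4 and chr3:106113132-106113431 on the plus strand for Chia1. Capitals mark TTCNNNGAA, a motif of STAT factors, and TATAAA, the letters of a TATA box.
Chil3: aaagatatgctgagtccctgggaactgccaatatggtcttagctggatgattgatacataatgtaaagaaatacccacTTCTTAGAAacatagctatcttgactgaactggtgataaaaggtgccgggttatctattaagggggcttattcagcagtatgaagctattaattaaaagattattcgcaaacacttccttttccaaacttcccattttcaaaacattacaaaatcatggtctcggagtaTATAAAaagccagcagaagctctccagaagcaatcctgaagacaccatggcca
Chil4: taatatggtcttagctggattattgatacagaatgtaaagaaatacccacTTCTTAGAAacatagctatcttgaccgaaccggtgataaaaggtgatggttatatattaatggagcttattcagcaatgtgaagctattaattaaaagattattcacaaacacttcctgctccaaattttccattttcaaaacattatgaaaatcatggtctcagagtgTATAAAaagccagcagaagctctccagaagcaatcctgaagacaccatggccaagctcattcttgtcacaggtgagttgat
Chia1: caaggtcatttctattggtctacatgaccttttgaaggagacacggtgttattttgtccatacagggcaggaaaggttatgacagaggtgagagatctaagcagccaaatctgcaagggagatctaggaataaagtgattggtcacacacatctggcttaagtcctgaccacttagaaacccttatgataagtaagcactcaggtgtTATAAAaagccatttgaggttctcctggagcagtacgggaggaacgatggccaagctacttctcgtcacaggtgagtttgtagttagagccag
Global alignment matched 251 of 271 aligned bases between the Chil3 and Chil4 windows, which is 92.6% identity, against 64.9% between Chil3 and Chia1 and 67.4% between Chil4 and Chia1. The windows of Chil3 and Chil4 each held 1 match to TTCNNNGAA, read on both strands, and those of Chia1, Chil1 and Chit1 held none. That motif occurs in 8.3% of the 32851 windows of the same length in the table. The form in which TTC and GAA stand 4 bases apart, which Stat6 is known to prefer, was in none of the 5 windows and in 6.95% of all windows. TATAAA was in the windows of Chil3, Chil4 and Chia1 and in 13.6% of all. Counted from the annotated start, its first base was at -3 in Chil3, -31 in Chil4 and -43 in Chia1, and that of TTCNNNGAA was at -172 in Chil3 and -200 in Chil4. The matches in Chil3 and Chil4 have the same letters, in windows of 92.6% identity, and are not separate observations. The match is a description of letters, not of a bound site, and its part in the levels was not tested.

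Chil3 and Chil4 are close paralogs, the probe letters are not used here, and the extent to which either probe also binds RNA of the other gene was not tested. Levels below are log2 signals relative to the 75th percentile of their own array, so that 0 is a signal equal to that percentile. Levels of different probes are not ranked against each other, and values are not set below a floor of -3.32. A difference was called at an adjusted p under 0.05 in limma, with Benjamini-Hochberg adjustment over all 18566 genes. Where arrays of different groups are said not to overlap, this is a description, and the share of all genes so separated was not counted.

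The 75th percentile was lowest on ko_OVA 4, at 78.03 intensity units, and highest on ko_saline 3, at 793.4, and 43.28% to 74.46% of probes were well above background. Arrays of 1 group correlated at a Pearson r of 0.962 to 0.989 over the 18566 genes and unnamed transcripts tested. Itgb6 gave signal in every group, at a mean level of -1.17 in ko_OVA, -0.86 in ko_saline, -0.59 in wt_OVA and -0.75 in wt_saline. Its range was -1.71 to -0.96 in ko_OVA, against -0.64 to -0.56 in wt_OVA, with no overlap. It was -1.02 to -0.73 in ko_saline, against -0.93 to -0.39 in wt_saline, where arrays overlapped. Marker lists of ciliated and basal cells had nearly all genes well above background on every array, and so did the club cell list on most. The alveolar type 2 list had 5 or 6 of its 6 genes well above background on every array. The ciliated and alveolar type 2 lists also moved with OVA, as given below. The 16 arrays lay on 4 slides, and slides 1 and 2 held all 4 groups. Precision is limited by how many arrays there are, and p-values measure only the spread between these samples, which may be technical. In such bulk RNA, fewer cells of a type and less RNA per cell cannot be told apart.

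Chil3 was abundant in wildtype epithelium whether or not the mice had met ovalbumin, and it was low in the saline-treated knockouts. Its probe, A_51_P167292, was well above background on all 16 arrays. The level was 2.46, 6.75, 4.81 and 4.77 on ko_OVA 1 to 4. It was -1.39, 0.02, 2.92 and -0.90 on ko_saline 1 to 4. In wt_OVA it was 6.68, 5.58, 6.39 and 7.10, and in wt_saline it was 4.82, 5.71, 4.97 and 5.40. Every ko_saline array lay below every wildtype array, and ko_saline 3 stood well above the other arrays of its group. The ko_OVA arrays spread over a 19.6-fold range and overlapped the wildtype groups, and the lowest of them lay below ko_saline 3.

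Group means of Chil3 were 4.70 ± 1.76 in ko_OVA, 0.17 ± 1.93 in ko_saline, 6.44 ± 0.65 in wt_OVA and 5.22 ± 0.40 in wt_saline (SD, n = 4 each). In order of level the groups ran wt_OVA, wt_saline, ko_OVA and ko_saline. Each neighbouring pair in that order overlapped in its arrays. The spread was larger in the knockout groups, where the arrays covered a 19.6-fold range after OVA and a 19.8-fold range after saline, against 2.89-fold in wt_OVA and 1.85-fold in wt_saline.

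Chil4 was also low in saline-treated knockouts, and it was called higher with ovalbumin in wildtype mice. Its probe, A_52_P428599, gave a level of 2.28, 4.89 and 2.04 on ko_OVA 1, 2 and 4. The spot on ko_OVA 3 carried an outlier flag in the deposited file and was left out, and its value was 3.82 where flagged spots were kept. The level was at the floor of -3.32 on ko_saline 1, 2 and 4 and -0.96 on ko_saline 3. It was 4.30, 3.24, 4.25 and 4.47 in wt_OVA, and 0.74, 1.54, 1.20 and 1.70 in wt_saline. The 4 ko_saline arrays were the lowest of all, the wt_saline arrays came next with no overlap, and the OVA arrays of both genotypes overlapped above them.

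Means of Chil4 were 3.07 ± 1.58 in ko_OVA (SD, n = 3), -2.73 ± 1.18 in ko_saline, 4.06 ± 0.56 in wt_OVA and 1.30 ± 0.42 in wt_saline (SD, n = 4 each). From high to low the groups ran wt_OVA, ko_OVA, wt_saline and ko_saline, and only wt_OVA and ko_OVA overlapped among neighbours. Chil4 was well above background on 2 of the 4 ko_saline arrays, so that the size of any difference from that group depends on the floor.

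Chia1, the active chitinase, had higher levels after OVA in both genotypes. As given below, the difference was called narrowly in wt and not in ko, and none between genotypes was called. On its brighter probe, A_52_P56636, the level was 2.40, 3.16, 3.47 and 2.16 in ko_OVA. It was 1.73, 1.54, 1.89 and 2.08 in ko_saline. In wt_OVA it was 3.36, 2.30, 2.17 and 2.53, and in wt_saline it was 1.28, 0.99, 1.36 and 1.84. The lowest OVA array lay above the highest saline array, with ko and wt arrays interleaved on either side. Means were 2.80 ± 0.62 in ko_OVA, 1.81 ± 0.23 in ko_saline, 2.59 ± 0.53 in wt_OVA and 1.37 ± 0.36 in wt_saline (SD, n = 4 each). In order of level the groups ran ko_OVA, wt_OVA, ko_saline and wt_saline, and ko_OVA overlapped wt_OVA as ko_saline overlapped wt_saline.

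The dimmer Chia1 probe, A_51_P473748, gave the same separation. It ran from -0.95 to 0.43 in ko_OVA and from -1.70 to -1.34 in ko_saline. In wt_OVA it ran from -0.62 to 0.54, and in wt_saline from -2.17 to -1.43. Again no OVA array fell among the saline arrays.

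Chil1, the chitinase-like protein that binds Il13ra2, varied from array to array, and no difference by genotype or agent was called. Its means were lower after OVA in both genotypes, and a fall of that size was not resolved. Its probe, A_51_P362066, was well above background on all 16 arrays. The level was -1.14, 1.08, -0.32 and -0.47 in ko_OVA and -0.09, -0.73, 0.19 and 1.89 in ko_saline. It was 0.90, -2.02, -1.70 and 0.32 in wt_OVA and -0.69, 1.25, 1.19 and 0.87 in wt_saline. All 4 groups overlapped, and the arrays of 1 group covered a range of 3.83-fold to 7.57-fold. Group means were -0.21 ± 0.93 in ko_OVA, 0.32 ± 1.12 in ko_saline, -0.63 ± 1.45 in wt_OVA and 0.65 ± 0.91 in wt_saline (SD, n = 4 each). No neighbouring pair in the order wt_saline, ko_saline, ko_OVA and wt_OVA differed beyond its spread.

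Chit1, the macrophage chitinase, was at or near background. Its probe, A_51_P253074, was well above background on wt_OVA 1 and wt_OVA 2, and on no other array. Only wt_OVA 1, at -2.57, lay above the floor. Before the floor was set, its mean signal as a multiple of the 75th percentile was 0.0158 in ko_OVA, 0.00482 in ko_saline, 0.0505 in wt_OVA and 0.00929 in wt_saline. Exact two-sided permutation tests of 4 against 4 arrays gave p = 0.657 for ko_OVA against wt_OVA and 0.657 for ko_saline against wt_saline. Likewise the exact permutation p was 0.2 for ko_OVA against ko_saline and 0.486 for wt_OVA against wt_saline, with 0.0286 the smallest p that 4 against 4 arrays allow. All 4 had an adjusted p of 0.657. A difference in Chit1 was not detectable at this signal, and no fold is given.

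**Figure D1:**
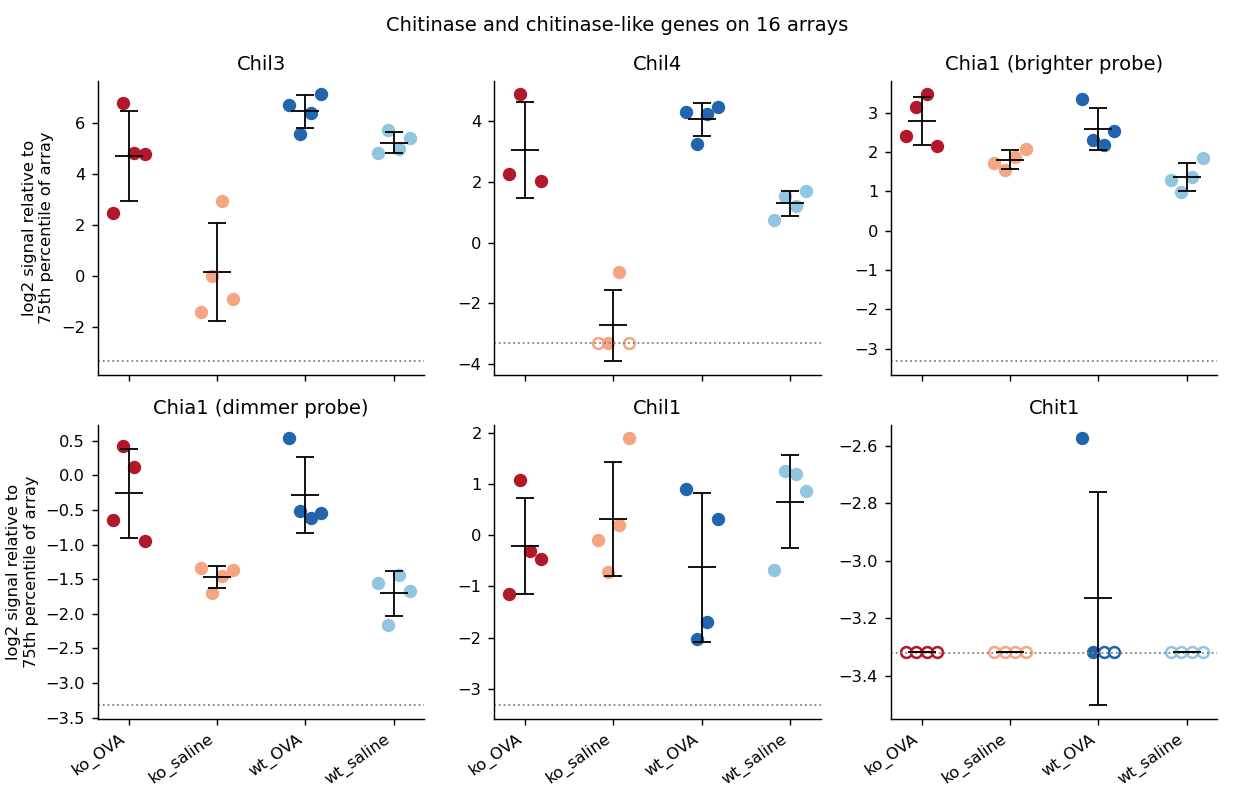
Log2 signal of each probe of Chil3, Chil4, Chia1, Chil1 and Chit1 relative to the 75th percentile of its array, by group. Points are single arrays, open points were not well above background, black lines are means with SD, and the dotted line is the floor. Chil3 and Chil4 were lowest in ko_saline, Chia1 was higher in both OVA groups than in both saline groups, and Chil1 overlapped throughout.

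In saline-treated mice the comparison of genotypes asked what loss of beta6 does without allergen. Chil3 and Chil4 were both lower in ko_saline than in wt_saline. Chil3 fell by 5.06 ± 0.89 on the log2 scale (SE, adjusted p = 0.0349, limma), a 33.3-fold difference, and its absolute difference ranked 3 of 18566 genes. Chil4 fell by 4.02 ± 0.64 (SE, adjusted p = 0.0201). With 3 of 4 ko_saline arrays at the floor that size is set in part by the floor, and it was -4.95 with a lower floor and -2.93 with normexp and quantile normalization, called in both. Chia1 differed by 0.44 ± 0.30 (adjusted p = 0.903) and Chil1 by -0.34 ± 0.74 (adjusted p = 1), neither past the threshold. The 2 of 4 tested genes called lower stood against 0.0377% of all genes called lower and 0.124% called higher.

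Within each slide that held both groups, the difference between ko_saline and wt_saline was -6.29, -6.21 and -4.24 for Chil3 and -5.02, -4.06 and -3.68 for Chil4, on slides 1, 2 and 4. All 4 ko_saline arrays were lower than all 4 wt_saline arrays for both genes. In this comparison 1170 of all 18566 genes had an unadjusted p under 0.05 in limma. The call on Chil3 was lost without any one of 12 arrays, namely all except ko_OVA 1, ko_OVA 2, ko_OVA 4 and ko_saline 3, at an adjusted p of up to 0.151 and a difference of -5.98 to -4.54. That on Chil4 was lost without ko_saline 1, 2 or 4, wt_saline 2, 3 or 4, or wt_OVA 1, at an adjusted p of up to 0.0945 and a difference of -4.61 to -3.83. With the position of the array on its slide as a block, the differences were -4.73 (adjusted p = 0.81) and -3.70 (adjusted p = 0.112). Position went in part with group. The ko_saline arrays lay at positions 1 and 3, and the wt_saline arrays at 2, except wt_saline 4 at 1. The ko_OVA arrays lay at 3 and 4, and the wt_OVA arrays at 1, 2 and 4. Genotype and position can therefore not be fully told apart in this comparison.

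After OVA the same comparison asked whether the genotypes still differed in allergic mice. None of the 4 tested genes was called between ko_OVA and wt_OVA, where 0.102% of all genes were called higher and 0.0431% lower. Chil3 differed by -1.74 ± 0.89 (SE, adjusted p = 0.884, unadjusted p = 0.0701) and Chil4 by -0.99 ± 0.69 (adjusted p = 0.884). Within slides 1, 2 and 3 the Chil3 difference was -0.76, -4.64 and -1.77. For Chil4 it was -2.19 and -2.23 on slides 2 and 3, and slide 1 gave none because of the flagged spot. Chia1 differed by 0.21 ± 0.30 (adjusted p = 0.961) and Chil1 by 0.41 ± 0.74 (adjusted p = 0.967).

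OVA against saline in knockouts asked how the beta6-deficient epithelium responds to allergen. Chil4 rose by 5.80 ± 0.69 on the log2 scale (SE, adjusted p = 0.0013, limma), and Chil3 rose by 4.53 ± 0.89 (adjusted p = 0.028), a 23.1-fold difference. Chia1 differed by 0.99 ± 0.30 (adjusted p = 0.211) and Chil1 by -0.53 ± 0.74 (adjusted p = 0.939). The share of all genes called was 0.479% higher and 0.269% lower, against 2 of 4 here. The size for Chil4 depends on the floor, and it was 6.72 with a lower floor (adjusted p = 0.00312) and 4.61 with normexp and quantile normalization (adjusted p = 0.00105). All 3 measured ko_OVA arrays of Chil4 lay above all 4 ko_saline arrays, and for Chil3 this held for 3 of 4 ko_OVA arrays, with ko_OVA 1 below ko_saline 3.

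By slide, the Chil3 difference between ko_OVA and ko_saline was 5.71, 3.85 and 5.28 on slides 1, 2 and 4, and the Chil4 difference was 5.59 and 7.03 on slides 2 and 4. The Chil4 call held without each of the 16 arrays in turn, at 4.89 to 6.39 and an adjusted p of 0.00116 to 0.00782. It was lost at an adjusted p of 0.0606 where only the arrays of ko_OVA and ko_saline were fitted. That on Chil3 was lost without ko_OVA 2, 3 or 4, ko_saline 1, 2 or 4, or wt_OVA 1, at an adjusted p of up to 0.0937, and its difference was 3.85 to 5.45.

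The same comparison in wildtype mice asked how a normal epithelium responds. Chil4 rose by 2.77 ± 0.64 (SE, adjusted p = 0.0389, limma) and Chia1 by 1.22 ± 0.30 (adjusted p = 0.0491), each with all 4 wt_OVA arrays above all 4 wt_saline arrays. Chil3 differed by 1.21 ± 0.89 (adjusted p = 0.524) and Chil1 by -1.28 ± 0.74 (adjusted p = 0.419). The 2 of 4 called higher stood against 1.56% of all genes called higher and 1.06% lower. On the dimmer Chia1 probe the difference was 1.42 ± 0.30 (adjusted p = 0.027 over 24385 probes), and over those probes the brighter one had an adjusted p of 0.0539.

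Both wildtype calls were narrow. Chil4 was lost without any one of wt_saline 1 to 4, wt_OVA 1, 3 or 4, or ko_saline 1 or 2, at an adjusted p of up to 0.118. Chia1 was lost without any one of 12 arrays, namely all except ko_OVA 1, ko_OVA 3, ko_OVA 4 and wt_saline 4, at an adjusted p of up to 0.154. Their differences remained between 2.58 and 3.04 for Chil4 and between 0.97 and 1.38 for Chia1. By slide, the wt_OVA to wt_saline difference on slides 1, 2 and 3 was 1.54, 3.72 and 3.07 for Chil4, and 0.45, 1.25 and 1.41 for Chia1.

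Averaged over genotypes, OVA against saline gave the calls that held best. Chil4 rose by 4.28 ± 0.47 (SE, adjusted p = 0.000168), Chil3 by 2.87 ± 0.63 (adjusted p = 0.0149) and Chia1 by 1.11 ± 0.22 (adjusted p = 0.00738), while Chil1 differed by -0.91 ± 0.52 (adjusted p = 0.374). The 3 of 4 called higher stood against 3.72% of all genes called higher and 2.74% lower. All 3 calls held without each array in turn. With array position as a block, Chil3 had an adjusted p of 0.132 and Chia1 of 0.0981.

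Averaged over agents, Chil3 fell by 3.40 ± 0.63 on the log2 scale in ko against wt (SE, adjusted p = 0.0351), and Chil4 fell by 2.51 ± 0.47 (adjusted p = 0.0498). Chia1 differed by 0.32 ± 0.22 (adjusted p = 0.762) and Chil1 by 0.04 ± 0.52 (adjusted p = 0.985). Of all genes, 0.0646% were called lower and 0.205% higher in this comparison. The Chil3 call was lost without any one of 12 arrays, all except ko_OVA 1, ko_OVA 2, ko_saline 3 and wt_OVA 2. The Chil4 call was lost without any one of 14, all except ko_OVA 2 and ko_saline 3.

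Whether the response to OVA differed between genotypes was tested as an interaction, the ko difference minus the wt difference. It was 3.32 ± 1.26 for Chil3 (SE, unadjusted p = 0.0192) and 3.03 ± 0.94 for Chil4 (unadjusted p = 0.00671), and both had an adjusted p of 0.993 in limma. It was 0.75 ± 1.04 for Chil1 and -0.24 ± 0.43 for Chia1. No member was called, and neither was any other gene, so 0% of genes were called in either direction, with 569 at an unadjusted p under 0.05. The larger OVA differences of Chil3 and Chil4 in knockouts are therefore not shown to differ from those in wildtype mice.

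**Figure D2:**
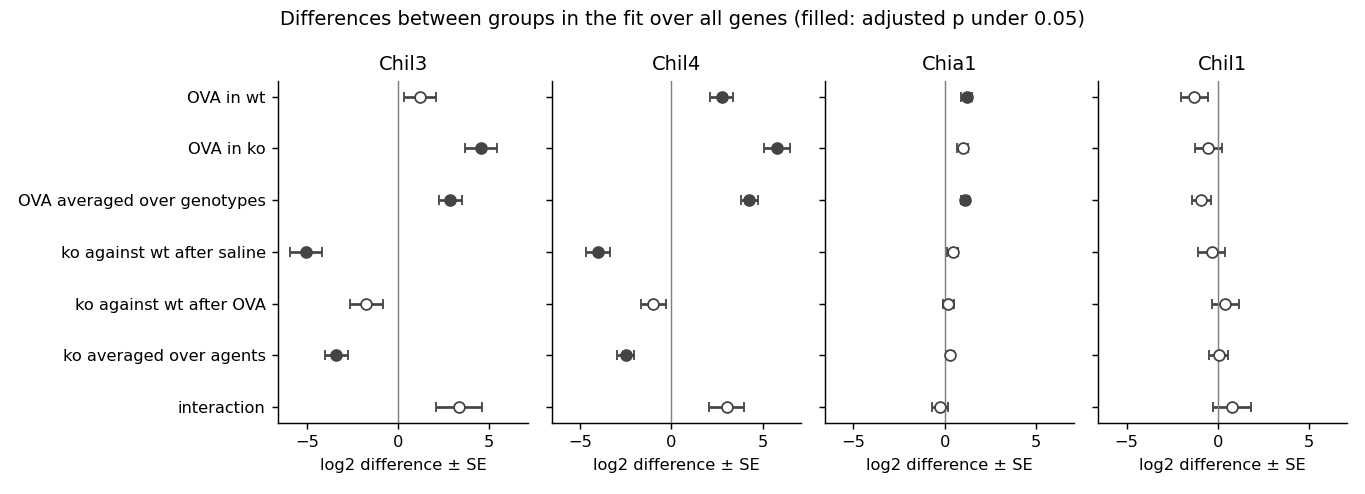
Log2 differences with SE from the limma fit for Chil3, Chil4, Chia1 and Chil1 in 7 comparisons, filled where the adjusted p was under 0.05. Chil3 and Chil4 were called lower in ko after saline and averaged over agents, and higher with OVA in ko and averaged over genotypes. Chil4 and Chia1 were called higher with OVA in wt, and Chia1 also averaged over genotypes. No interaction was called.

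**Figure D3:**
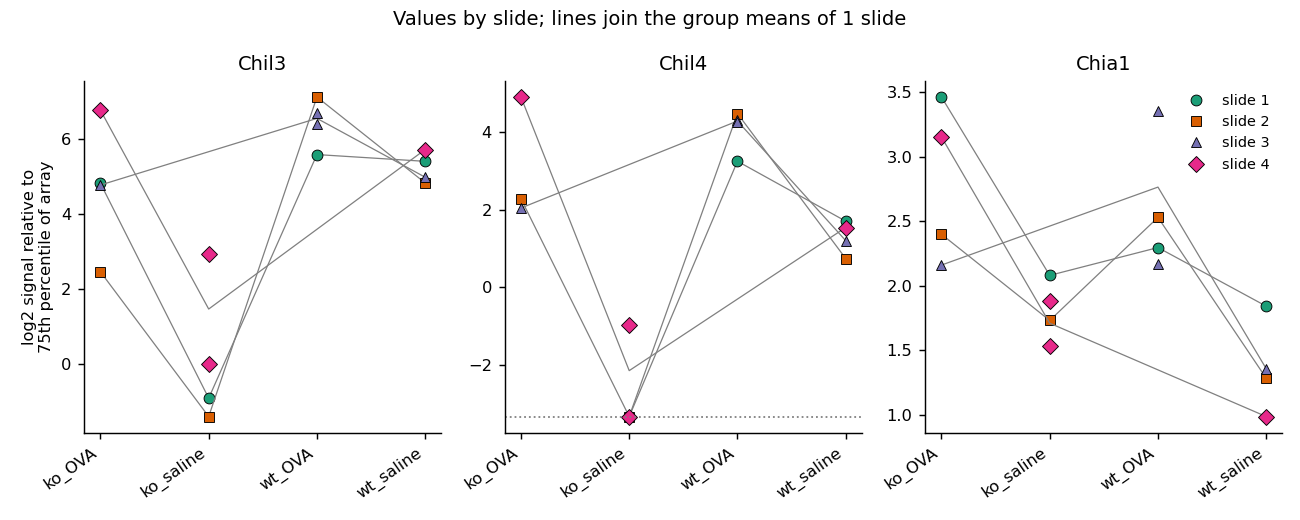
The level of Chil3, Chil4 and Chia1 on each array by slide, with lines that join the group means of 1 slide. On each slide that holds both groups, ko_saline lay below wt_saline for Chil3 and Chil4, and OVA arrays lay above saline arrays of the same genotype for Chia1.

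Chil3 and Chil4 moved together across arrays. Their levels had a Pearson r of 0.929 over the 15 arrays with both values, and of 0.874 after group means were taken out, as a description over arrays that share slides and scaling. Among the other pairs, r lay between -0.157 for Chil4 and Chil1 and 0.566 for Chil4 and Chia1. After group means were taken out it lay between 0.279 for Chil3 and Chia1 and 0.585 for Chil1 and Chia1.

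Whether the 2 paralogs moved by equal amounts was looked at through the level of Chil3 minus that of Chil4 on the same array, whose change between groups can be read but not its size. It was 2.38, 2.34, 2.15 and 2.64 in wt_OVA, against 4.08, 4.17, 3.77 and 3.69 in wt_saline. The groups did not overlap, and their means were 2.38 ± 0.20 and 3.93 ± 0.23 (SD, n = 4 each). The difference of -1.55 had an exact two-sided permutation p of 0.0286, the smallest that 4 against 4 arrays allow, and an adjusted p of 0.114 over the 4 comparisons so tested, which does not pass the threshold. This measure was chosen after the values had been seen. In knockouts it was 1.59 ± 1.29 in ko_OVA (SD, n = 3) and 2.89 ± 0.88 in ko_saline (SD, n = 4), where the exact permutation p was 0.171 and 3 of the 4 ko_saline arrays had Chil4 at the floor.

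**Figure D4:**
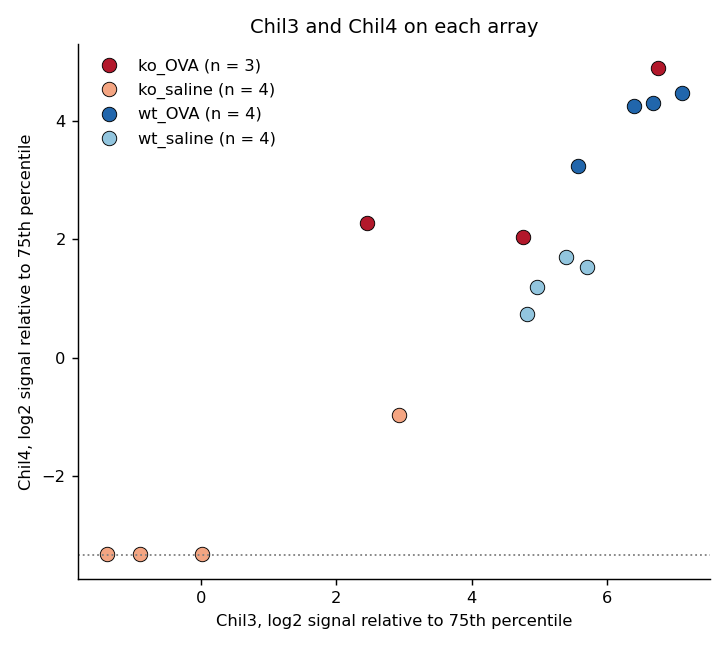
Levels of Chil3 and Chil4 on the 15 arrays with both values, coloured by group, with the floor as a dotted line. The ko_saline arrays lie at the low end of both axes, and wt_OVA arrays lie above wt_saline arrays mainly along the Chil4 axis.

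Genes whose pattern was most like that of each member were ranked among 12226 genes with a symbol, as a description with no p. Over 16 arrays, Chil3 was most like Havcr2, an inhibitory receptor of immune cells (r = 0.856), followed by 1810055G02Rik, Tlr2, Itgax and Creb3l2 at 0.852, 0.823, 0.811 and 0.808. After group means were taken out, the first were Rassf6 (0.917), Slc7a5 (0.888), Slc7a11 (0.864), Mthfd2 (0.842) and Clec4e (0.832). Over 15 arrays, Chil4 was most like 2210407C18Rik (r = 0.914), Manf, a protein of endoplasmic reticulum stress (0.898), Plat (0.89), Spdef, a factor of mucous cells (0.89), and Krt79 (0.888). After group means were taken out, the first were Atf5 (0.879), Slc7a11 (0.876), Slc7a1 (0.862), Slc7a5 (0.853) and Kcnj1 (0.838). The amino acid transporters Slc7a5 and Slc7a11 were thus among the first 5 for both paralogs.

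Chia1 was most like Gla, a lysosomal galactosidase (r = 0.881), Galnt12 (0.875), Ccl8 (0.868), Fcgbp (0.854) and Cenpj (0.847). After group means were taken out the first were Efnb3 (0.875), Lrrc75b (0.848), Gla (0.836), Nrf1 (0.828) and Ces1g (0.824). Chil1 was most like Sftpa1, a surfactant protein (r = 0.777), Ghrl (0.752), Cbx5 (0.734) and Ggt5 (0.722). After group means were taken out they were Syt12 (0.805), Slc43a3 (0.801), Traf1 (0.798), E2f7 (0.795) and H1f5 (0.788). All these values are maxima over many genes on few arrays.

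The rest of the family and its binding partners showed few changes. Of 17 listed genes, 13 were tested, and 1 was called higher with OVA in wt, against the 1.56% of all genes given above. That gene was Has3, a hyaluronan synthase, which rose by 0.93 ± 0.22 in wt (adjusted p = 0.0378) and by 0.78 ± 0.15 averaged over genotypes (adjusted p = 0.00838). No gene of the list was called with OVA in ko or between genotypes. In those comparisons the genes with the smallest p with OVA in ko were Has3, with a difference of 0.62 (adjusted p = 0.3), and Chid1, a chitinase domain protein, with 0.37 (adjusted p = 0.375). Between ko_saline and wt_saline they were Chid1, with -0.34 (adjusted p = 0.773), and Hexa, a lysosomal hexosaminidase, with 0.22 (adjusted p = 0.886). The median difference of the list lay between -0.10 and 0.03 over the 7 comparisons, where that of all genes lay between -0.01 and 0.01.

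Of the other chitinase-like neighbours on chromosome 3, Chil5 was above the floor on 2 of 4 ko_OVA arrays, no ko_saline array, all 4 wt_OVA arrays and no wt_saline array. It was well above background on 3 ko_OVA, 1 ko_saline, 3 wt_OVA and 0 wt_saline arrays. Its level ran from -3.28 to -1.55 in wt_OVA, and its difference from wt_saline was 0.65 (adjusted p = 0.236). Chil6 was at the floor on all 16 arrays. So was Il13ra2, the receptor subunit that Chil1 binds.

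Some genes of the type 2 response, the programme driven by interleukin 4 and interleukin 13, were called higher with OVA, and most of those tested were not called. Of 30 listed genes 25 were tested, and 5 were called higher with OVA in wt, 3 with OVA in ko and 8 averaged over genotypes, with none lower. The shares of all genes called higher were 1.56%, 0.479% and 3.72% in those comparisons. With OVA in wt, the anion exchanger Slc26a4 rose by 5.39 ± 0.60 (SE, adjusted p = 0.000322) and the lectin Itln1, with no value on ko_OVA 1 and wt_OVA 2, by 3.33 ± 0.35 (adjusted p = 0.000508). Il1rl1, the receptor of interleukin 33, rose by 2.27 ± 0.32 (adjusted p = 0.00211) and Fcgbp, a mucus protein, by 1.99 ± 0.25 (adjusted p = 0.000806). With OVA in ko, the 3 were Itln1, up by 3.90 ± 0.35 (adjusted p = 0.000632), Slc26a4, up by 3.63 ± 0.60 (adjusted p = 0.00971), and Fcgbp, up by 1.81 ± 0.25 (adjusted p = 0.00279). Averaged over genotypes, Retnla and Retnlb, secreted resistin-like proteins, were among the 8, up by 2.50 (adjusted p = 0.049) and 2.48 (adjusted p = 0.0144). The list's median difference was 0.31 with OVA in wt and 0.43 with OVA in ko, against 0.00 for all genes in each.

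Between genotypes 1 gene of the list was called after each agent. It was Il1rl1, which was higher by 4.14 ± 0.32 in ko_saline than in wt_saline (adjusted p = 7.99e-06). In ko_OVA it was higher by 2.30 ± 0.32 than in wt_OVA (adjusted p = 0.0049). Its mean level was 2.15 in ko_OVA, 1.73 in ko_saline, -0.14 in wt_OVA and -2.41 in wt_saline. In the same order, that of Cpa3, of the mast cell list given below, was 2.64, 2.75, -0.20 and -2.45. All 4 tested genes of that list were called higher in ko_saline, and 3 in ko_OVA. The part of mast cells in the Il1rl1 difference was not tested. The median difference of the type 2 list was 0.00 between ko_saline and wt_saline and -0.01 between ko_OVA and wt_OVA. Retnla, a secreted product of alternatively activated macrophages and airway epithelium often followed together with Chil3, ran from 4.13 to 4.37 on the 3 measured ko_saline arrays and from 1.64 to 5.87 in wt_saline, with a difference of 0.23 (adjusted p = 1). It was chosen after its values had been seen.

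Markers of other cells moved beside these genes in part, and their summed levels leave out flagged spots. Of 14 listed macrophage genes 13 were tested, and 2 were called lower between ko_saline and wt_saline, where Chil3 was lower too. They were Ear1 (-3.89 ± 0.54, SE, adjusted p = 0.00358) and Ear10 (-3.39 ± 0.27, adjusted p = 8.93e-06), eosinophil-associated ribonucleases that alveolar macrophages also make and that belong to a family of near-identical copies. Both were also lower in ko_OVA than in wt_OVA, with differences of -3.31 ± 0.54 (adjusted p = 0.0202) and -2.52 ± 0.27 (adjusted p = 0.000431), where Chil3 and Chil4 were not called. Ear1 was at the floor on 3 ko_OVA and 2 ko_saline arrays, and Ear10 on 3 of each, so that their sizes depend on the floor. The other 11 tested genes were not called between ko_saline and wt_saline, and the list's median difference was 0.00, as for all genes. Among them, Marco differed by -2.05 ± 0.59 (adjusted p = 0.438) and Itgax, an integrin of alveolar macrophages and dendritic cells, by -1.35 ± 0.32 (adjusted p = 0.244). Averaged over agents, Itgax differed by -1.13 ± 0.23 (adjusted p = 0.0669).

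The summed level of the macrophage list, in multiples of the 75th percentile, had a range of 13.9 to 27.7 in ko_OVA and 11.3 to 27.5 in ko_saline, against 21.5 to 42.3 in wt_OVA and 22.3 to 36.0 in wt_saline. The genotypes overlapped after each agent. Adgre1, C1qa, C1qb, Csf1r, Fabp4, Itgax and Lyz2 were well above background on all 16 arrays, while Siglec1 was at the floor on 15 of 16. Marco, a receptor of alveolar macrophages, was lower with OVA in wt, with a difference of -3.00 ± 0.59 (adjusted p = 0.0141), where Chil4 and Chia1 were higher. The array ko_saline 3, with the highest Chil3 and Chil4 of its group, also had the highest Ear1 and Ear10 of its group and the highest 75th percentile of all arrays. The part of macrophage RNA in these differences was not tested.

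Mast cell genes moved opposite to Chil3 and Chil4 between genotypes. Of 6 listed genes 4 were tested, and all 4 were called higher in ko_saline than in wt_saline, led by Cpa3, a mast cell protease, at 5.19 ± 0.29 (SE, adjusted p = 4.23e-07). The summed level of the list was 41.13 to 57.45 in ko_saline, against 0.748 to 2.16 in wt_saline, with no overlap. After OVA it was 42.79 to 81.15 in ko_OVA, against 5.71 to 10.77 in wt_OVA, and 3 of 4 genes were called higher in ko. With OVA in wt, where Chil4 and Chia1 rose, all 4 were called higher, and with OVA in ko, where Chil3 and Chil4 rose, none was. The part of mast cells in these differences was not tested.

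The stomach list was included because Chia1 is also a stomach enzyme. Its summed level was 0.544 to 9.39 in ko_OVA and 0.127 to 0.613 in ko_saline. It was 1.498 to 3.46 in wt_OVA and 0.163 to 0.847 in wt_saline. Of its 6 genes 1 was tested, Tff1, and it was called higher with OVA averaged over genotypes. The mean level of Tff1 was 1.397 in ko_OVA, -2.142 in ko_saline, 0.916 in wt_OVA and -2.035 in wt_saline. Pgc was at the floor on all 16 arrays, Cblif, Atp4b and Gkn1 on 15, and Atp4a on 14. The summed level of this list therefore mostly follows Tff1. The striated muscle list ran from 0.652 to 215.8 in ko_saline and from 0.528 to 19.27 in wt_saline, and none of its 6 genes was called. Of 6 alveolar type 2 genes, Sftpb was called lower with OVA in ko and in wt. The list's summed level was 74.01 to 121.5 in ko_OVA and 122.8 to 209.7 in ko_saline. It was 63.98 to 120.3 in wt_OVA and 129.9 to 135.8 in wt_saline. OVA and saline arrays of 1 genotype did not overlap. No gene of the list was called between genotypes, where the largest difference after saline was that of Sftpc, 3.45 ± 0.96 (SE, adjusted p = 0.411, limma). Of 5 tested club cell genes, 1 was called lower with OVA in ko and 2 with OVA in wt. Their part in the results was not tested.

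Most mucous cell genes rose with OVA in both genotypes. Of 7 tested genes 5 were called higher in each, and the list's summed level was 306.3 to 910 in ko_OVA and 91.03 to 129.2 in ko_saline, against 178.9 to 1210 in wt_OVA and 122.7 to 172.1 in wt_saline. The lowest OVA values were those of ko_OVA 3 and wt_OVA 3, where Clca1, a bright gene of the list, had no value, and the next were 329.1 in ko_OVA and 470.2 in wt_OVA. Between genotypes none was called after either agent. The neutrophil list had none of 6 tested genes called in those 4 comparisons, and the eosinophil list none of 2. Averaged over genotypes, 1 neutrophil gene, Retnlg, was called higher with OVA, at 2.97 ± 0.59 (SE, adjusted p = 0.00873). The median difference of the neutrophil list there was -0.02. In wt, S100a8 and S100a9 had lower means after OVA, -2.71 against -0.45 and -0.13 against 3.54. In ko both had higher means after OVA, -0.16 against -1.80 and 3.47 against 2.01. Camp and Ngp were at the floor on 15 arrays and Cxcr2 on 14. The ciliated list had 2 of 6 genes called higher with OVA in wt, none with OVA in ko and 4 averaged over genotypes, among them Ccdc39, a cilium assembly protein, at 0.58 ± 0.07 (adjusted p = 0.00036). Its summed level was 168.9 to 187.9 in ko_OVA and 112.0 to 134.5 in ko_saline, against 174.0 to 212.3 in wt_OVA and 134.5 to 169.7 in wt_saline, so that OVA and saline arrays of 1 genotype did not overlap. The part of these cells in the results was not tested.

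**Figure D5:**
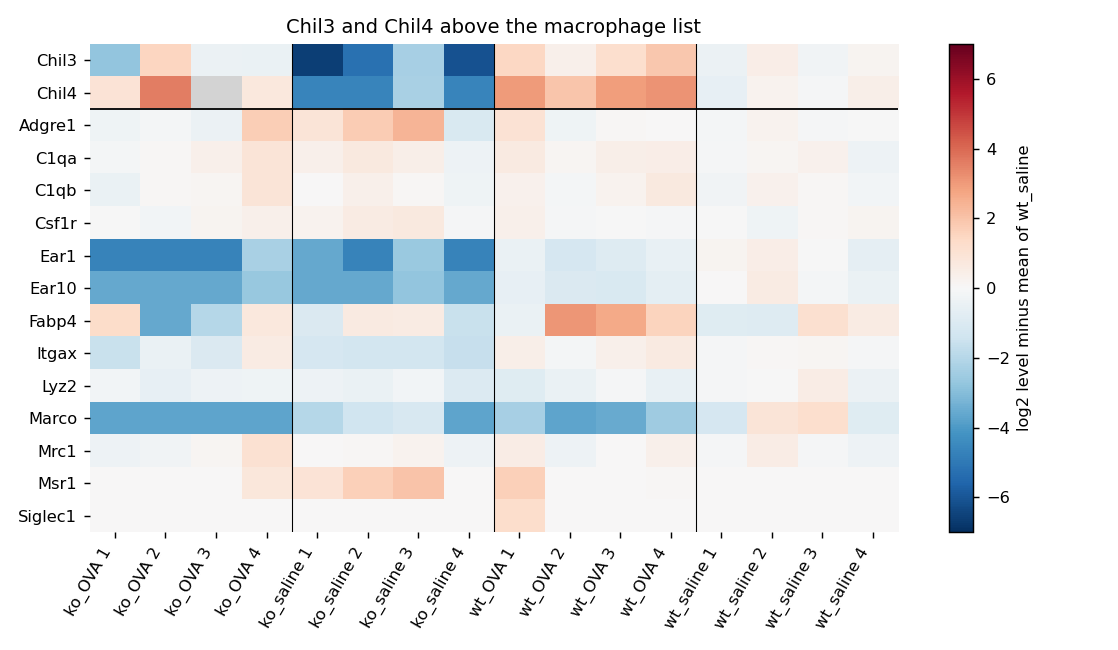
Levels of Chil3 and Chil4 above those of 13 macrophage genes on 16 arrays, each as log2 level minus the mean of wt_saline, with the flagged Chil4 spot in grey. Ear1 and Ear10 were low on ko arrays of both agents, whereas Chil3 and Chil4 were lowest on ko_saline arrays.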

How the data were processed

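Airway epithelium RNA, labelled with Cy3 from 0.5 ug, was measured on 16 one-colour mouse arrays, per the labels' protocols. The deposited scanner files hold background-subtracted processed signals in intensity units with flags for each spot, written by Feature Extraction, whose version is 10.5.1.1 per the file headers but 10.1 in the submitters' processing notes. Log2 values of the same arrays, deposited by the authors as a series table, served as an alternative. All sample columns used could be matched to a sample.

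Control spots and spots flagged as outliers were left out. Repeated spots were averaged. Each array was scaled to its own 75th percentile, then raised where needed to the floor, -3.32 as log2 (0.1 of the percentile, set by ko_OVA 4, where the lowest signal well above background was highest), before log2 was taken. Probes were kept if 4 or more of the 16 arrays had them well above background (25615 of 41174), and a gene was read from its brightest probe, giving 18566 genes and unnamed transcripts, of which 12851 had a symbol. Symbols came from RefSeq accessions (GRCm38.p6), which matched 24844 probes. Since a floor and a log scale were used, differences of dim genes can be understated, and their size depends on the setting. The Chil4 differences from ko_saline were larger with a lower floor and smaller with normexp or the series table.

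Limma 3.58.1 under R 4.3.3 fitted all 16 arrays with 1 mean per group, and p-values were adjusted with the Benjamini-Hochberg method over all genes at 0.05. The fit was tested on simulated data. The members, lists and tests were chosen with earlier results of these data known. Named by rule were the members with every probe, up to 4 called genes of the family and type 2 lists with the largest change in a comparison or the 2 with the smallest p, and the 5 genes most like each member by Pearson r, of which 1 is not reported here. Marker genes of other cells were named after their values were seen. Alternatives covered scaling, floor, background, filter, probes, blocks, array weights, variance model and arrays left out. Replicate numbers did not pair arrays, since deviations from group means correlated above 0.1 in 6 of 16 same-numbered pairs (-0.221 to 0.402).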

Additional observations from a re-analysis of the deposited data

Results flagged for a closer look

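In 20 tests over groups of 4 arrays, 3 values stood apart from the rest of their group. Each did so by a gap that chance exceeds in about 1 in 20 groups. Chil4 on ko_saline 3 was at -0.96, while the other 3 arrays of that group lay at the floor, so that the floor itself sets the gap to the whole range. The dimmer Chia1 probe on wt_OVA 1 was at 0.54, against -0.62 to -0.52 on the other wt_OVA arrays. Chit1 on wt_OVA 1 was at -2.57, with the other wt_OVA arrays at the floor, so that this gap too is set by the floor. Before the floor its signal was 0.168 of the 75th percentile, against 0.0373 on the next array. The array wt_OVA 1 also had the largest share of probes well above background, 74.46%. No member passed the threshold for a different OVA response in ko and wt.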

How the results depend on the processing

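Directions of Chil3 and Chil4 were the same under every alternative run, and of Chia1 under OVA in each genotype, while several calls lay near the threshold. Of the 2 members called with OVA in wt, 0 were called with median scaling, a lower floor, no filter on dim probes, the replicate block or array position as a block, and 1 with slide as a fixed block or only the arrays compared. Of the 2 with OVA in ko, 1 was called with median scaling or array position, 0 with only the arrays compared, and 3 with array weights, where Chia1 was called too (1.212, adjusted p = 0.0146). Of the 2 between ko_saline and wt_saline, 0 were called with the replicate block or array position, and 1 with no filter or only the arrays compared. Of the 3 with OVA averaged over genotypes, 1 was called with array position. Of the 2 with ko averaged over agents, 0 were called with no filter, the replicate block or array position, and 1 with median scaling, a lower floor, normexp and quantile normalization, slide as a fixed block, or a trended and robust variance. The cause was not tested. With each array left out in turn, the counts were 0 to 2 with OVA in wt, 1 to 2 with OVA in ko, 0 to 2 between ko_saline and wt_saline and 0 to 2 with ko averaged, and unchanged at 3 with OVA averaged and at 0 elsewhere. In the paired fit with the replicate number as a block, Chil4 had an adjusted p of 0.0645 with OVA in wt and 0.0621 between ko_saline and wt_saline, but the arrays share only a number, so no weaker effect is read from it.

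Reversed signs were confined to differences that were not called. They were Chil1 with OVA in ko under array weights (0.01473), Chil1 between ko_OVA and wt_OVA under array position (-0.03841), the Chia1 interaction under median scaling (0.05509) and array weights (0.2929), and Chil1 averaged over agents under normexp (-0.00067) and array position (-0.51). With arrays left out, the ranges that crossed 0 were -0.862 to 0.01059 for Chil1 between ko_saline and wt_saline, -0.05017 to 0.9228 for Chil1 and -0.01808 to 0.4617 for Chia1 between ko_OVA and wt_OVA, -0.4591 to 0.02068 for the Chia1 interaction and -0.22 to 0.29 for Chil1 averaged over agents.

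Counts over all genes moved by more than 1.5 times. With OVA in wt, 485 genes became 100 with median scaling, 94 with array position, 252 with only the arrays compared and 1443 with array weights. With OVA in ko, 139 became 35 with median scaling, 58 with only the arrays compared and 366 with array weights. Between ko_saline and wt_saline, 30 became 15 with array position, 46 with a lower floor, 52 with only the arrays compared, 55 with the series table and 127 with array weights, and between ko_OVA and wt_OVA 27 became 9 with only the arrays compared. With OVA averaged, 1200 became 379 with median scaling, 525 with array position, 747 with slide as a fixed block and 2528 with array weights, and with ko averaged 50 became 27 with array position, 79 with median scaling, 85 with the series table and 220 with array weights. With 1 array left out, the counts were 235 to 543 with OVA in wt (moved by over 1.5 times without wt_OVA 1 or 3 or wt_saline 1 or 2), 69 to 168 with OVA in ko (without ko_OVA 2 or 4 or ko_saline 1, 2 or 3), 25 to 47 between ko_saline and wt_saline (without ko_OVA 4 or ko_saline 4) and 762 to 1229 with OVA averaged (without wt_OVA 3). The interaction gave 1 gene with slide as a fixed block or array weights, and at most 3 with an array left out (3 without wt_OVA 2). Median scaling shifted the median of all genes by -0.246 with OVA in wt, -0.103 with OVA averaged, 0.323 between ko_OVA and wt_OVA, 0.176 with ko averaged and 0.284 in the interaction. Its calls were 39 higher and 61 lower with OVA in wt (289 and 196 otherwise), 117 and 262 with OVA averaged (691 and 509), 24 and 5 between ko_OVA and wt_OVA (19 and 8), and 71 and 8 with ko averaged (38 and 12). Between ko_OVA and wt_OVA the split was also 31 and 7 with the series table. Low signal limits Chit1 and Chil4 in ko_saline, whose difference from wt_saline was -4.95 with a lower floor and -2.93 with normexp.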
